A study of Panax japonicus with 15 samples.

Results

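The Y period of Panax japonicus fruit colour was set against the G period over the RNA of the pericarp, the fruit wall left once the seed has been taken out. Panax japonicus is a medicinal herb of the ginseng genus. The members of this comparison were the transcript clusters, features of the deposited table with identifiers of the form Cluster-number.number, that reached at least 1 TPM in at least 3 of the 6 Y and G libraries. TPM is a level of expression scaled by transcript length and to the same total in each library. There were 77948 such transcript clusters among 462117 in the table. The study as a whole held 15 pericarp libraries, 3 each from 5 colour periods that the labels call Y, G, R, B and P. The labels place the species in the high mountains of Guizhou, and all groups share the same dissection, freezing and RNA extraction. The labels name no strain, treatment, fruit age or order of the periods, and do not spell out the letters. They do not say how the 3 biological replicates of a period relate to plants or harvest days. A p-value here therefore sets a difference only against the spread among replicate libraries, and that spread may be technical.

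As background, a fleshy fruit changes colour when chlorophyll is broken down and carotenoids, anthocyanins and other flavonoids build up in the fruit wall. Much of this is set by the transcription of the enzymes that make and degrade these pigments, together with genes of ripening hormones and cell-wall softening. No gene names are paired with the identifiers in the table and no annotation was used, so no transcript cluster below carries a name or a role, and no defining gene of pericarp could be looked up. At most 2 identifiers are printed for each direction.

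Facts of the libraries bear on what follows. Between 157065 and 180948 transcript clusters were above 0 TPM in the Y libraries and between 145724 and 172147 in the G libraries. The members held between 86.4% and 87.1% of TPM in Y libraries and between 77.4% and 84.3% in G libraries. The number of reads behind a TPM is unknown, so no counting interval or detection limit is given, and a 0 means only that the transcript cluster is listed at 0. In bulk tissue, fewer cells of a type and less RNA per cell cannot be told apart.

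The 3 Y libraries resembled each other more than the 3 G libraries did. Over the members, on the log2(TPM + 1) scale, Pearson's r between Y libraries was 0.815, 0.786 and 0.788, and between G libraries it was 0.714, 0.666 and 0.726. The 9 pairs of a Y and a G library ran from 0.656 to 0.722. These ranges overlap: the closest Y and G pair, Y replicate 1 with G replicate 2, correlated higher than G replicate 1 did with either other G library. The correlations are across transcript clusters, which are not independent replicates, and they carry no test. The spread within a period was likewise wider in G, with a median SD over the members of 0.426 in Y and 0.579 in G on the log2(TPM + 1) scale. The SD was smaller in Y than in G for 64.1% of members.

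The 2 periods differed in 1676 transcript clusters, of which 950 were higher in Y and 726 were lower in Y. Expression was compared by limma in a model of the 5 period means over all 15 libraries, with Benjamini-Hochberg adjustment over the 138664 transcript clusters that reached at least 1 TPM in at least 3 of the 15 libraries, with calls made where the adjusted p was under 0.05. The calls made up 2.15% of the members, 1.22% higher and 0.931% lower. Over all transcript clusters tested, 1.21% were called, 0.687% higher and 0.524% lower. The other 76272 members were not called, among them 9332 with an unadjusted p under 0.05. All 1676 called members had 3 Y values that did not overlap the 3 G values. Such separation was common without a call, holding for 14547 of the 76272 members not called. With the called ones included, it held for 20.8% of the members and for 14.9% of all transcript clusters tested.

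The calls lean to the higher side on the TPM as deposited, and the lean depended on the processing. Of the called members, 56.7% were higher in Y. When libraries were rescaled by the median ratio over transcript clusters present everywhere, 803 were higher and 827 lower, or 49.3% higher. The lean was larger with a pseudocount of 0.1, at 866 higher and 442 lower, and where the mean over the 15 libraries had to reach 10 TPM, at 830 higher and 327 lower. A mean over all 15 libraries can drop members that are high in G alone more readily than members also high in R, B or P. The part of this in the lean was not tested. Of the 1676 calls, 1525 were shared with median-ratio scaling. Over all members the median difference, Y minus G, was 0.11 on the log2(TPM + 1) scale, and 0.02 after rescaling.

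The number of calls rests on libraries other than Y and G as well, since all 5 periods share 1 estimate of the spread. In a limma fit on the 6 Y and G libraries alone, 152 members were higher in Y and 105 lower, and 205 of these 257 were among the 1676. Leaving out a Y library left between 501 and 536 higher and between 410 and 430 lower, and the higher count was 616 without G replicate 3.

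**Figure D1:**
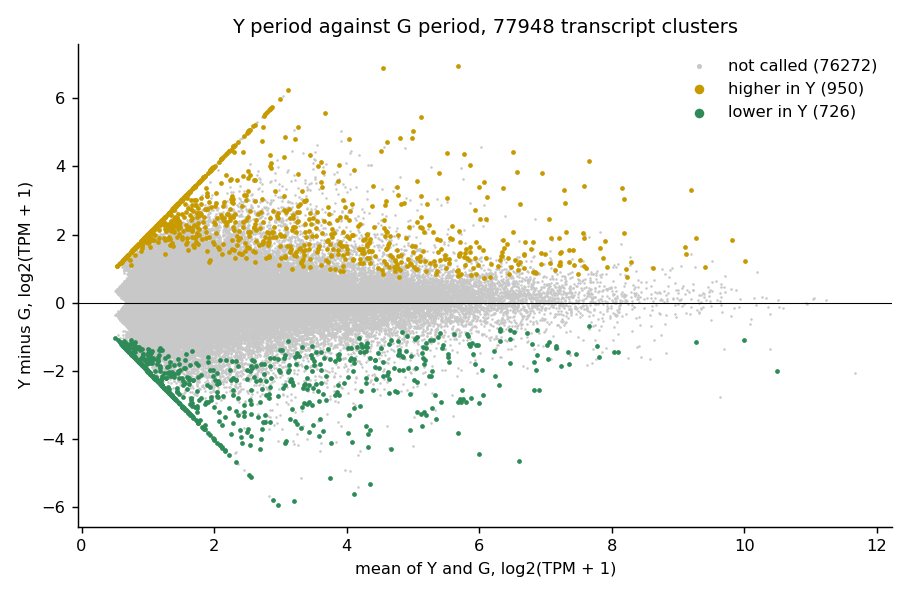
Difference of mean log2(TPM + 1), Y minus G, against the mean of both periods for the 77948 members, 1 point each. The 950 called higher in Y are in yellow, the 726 called lower are in green and the 76272 not called are in grey; the straight outer edges at the left are transcript clusters listed at 0 in 1 of the 2 periods.

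Called differences were mostly large. Among the 950 higher in Y the median difference was 2.10 on the log2(TPM + 1) scale, with an interquartile range from 1.58 to 2.77. Among the 726 lower in Y it was -2.03, with an interquartile range from -2.70 to -1.57. Many of these sets lie at 0 in some library, which ties their difference to the pseudocount of 1. For the 479 higher and 320 lower members above 0 in all 6 libraries, the medians were 1.72 and -1.96. At least 4-fold differences on this scale were seen for 517 of the higher and 378 of the lower set. At least 16-fold differences were seen for 67 of the higher and 29 of the lower set. The smallest called difference was 0.74 in the higher set and -0.69 in the lower set.

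Most large differences among the members were not called. Of 14557 members that differed at least 2-fold, 8836 were higher and 5721 lower in Y, and 1633, or 11.2%, were called. Of 2702 that differed at least 4-fold, 895 were called, and of 170 that differed at least 16-fold, 96 were called. The test sets a difference against the spread, so a wider spread among the uncalled ones follows from how they were split and is given as a description. At 4-fold or more, the median SD within Y was 0.324 for called and 0.740 for uncalled members, and within G it was 0.377 for called and 0.919 for uncalled ones. The Y and G values overlapped in 565 of the 1807 uncalled members that differed at least 4-fold.

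Within the called members the 3 libraries on each side lay close together. The gap between the lowest Y and the highest G value had a median of 1.43 on the log2(TPM + 1) scale for the higher set, and was at least 2-fold for 729 of 950. For the lower set the gap between the highest Y and the lowest G value had a median of 1.38, and was at least 2-fold for 576 of 726. Among these called members the median difference was similar whichever single Y or G library was used. The median difference of a single Y library from the G mean was between 2.04 and 2.14 for the higher set and between -2.04 and -2.01 for the lower set. That of the Y mean from a single G library was between 2.02 and 2.13, and between -2.05 and -1.99. These members were called on the same libraries, so the gaps and single-library values describe them and support nothing further.

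Calls were often lost when 1 library was left out. A call in every one of the 6 fits that left out a Y or G library was kept by 397 of the 950 higher and 326 of the 726 lower members, 723 in all. No called member changed direction in any of the 6. This stable part made up 58.3% of the called members with a mean of 100 TPM or more, 46.3% of those from 10 to 100 TPM, 40.2% of those from 1 to 10 TPM and 36.5% of those under 1 TPM.

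Abundant members were called more often, and the side to which the calls leaned differed with abundance. By the mean over the 6 libraries, 108 of 1046 members at 100 TPM or more were called, or 10.3%. The share was 3.79% of 14497 members from 10 to 100 TPM, 1.60% of 57065 from 1 to 10 TPM and 1.95% of 5340 under 1 TPM. Because adding 1 TPM shrinks the differences of low values, a higher share called does not mean that abundant members differed more often. At 100 TPM or more, 75 were higher in Y and 33 were lower in Y, which became 64 and 40 with median-ratio scaling. From 10 to 100 TPM, 330 were higher and 219 lower, but 274 and 276 with median-ratio scaling. From 1 to 10 TPM, 508 were higher and 407 lower, but 435 and 438 with that scaling. Under 1 TPM the lean was the other way, with 37 higher and 67 lower on the deposited scale and 30 and 73 after rescaling.

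A small number of abundant transcript clusters held much of the difference in TPM. Summed over the 950 higher members, the mean TPM in Y exceeded that in G by 37860, and 48 of them made up the larger part of this. Summed over the 726 lower members, the mean TPM in G exceeded that in Y by 20561, and 43 made up the larger part. The 1 largest term was 4.38% of the first sum and 10.5% of the second.

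**Figure D2:**
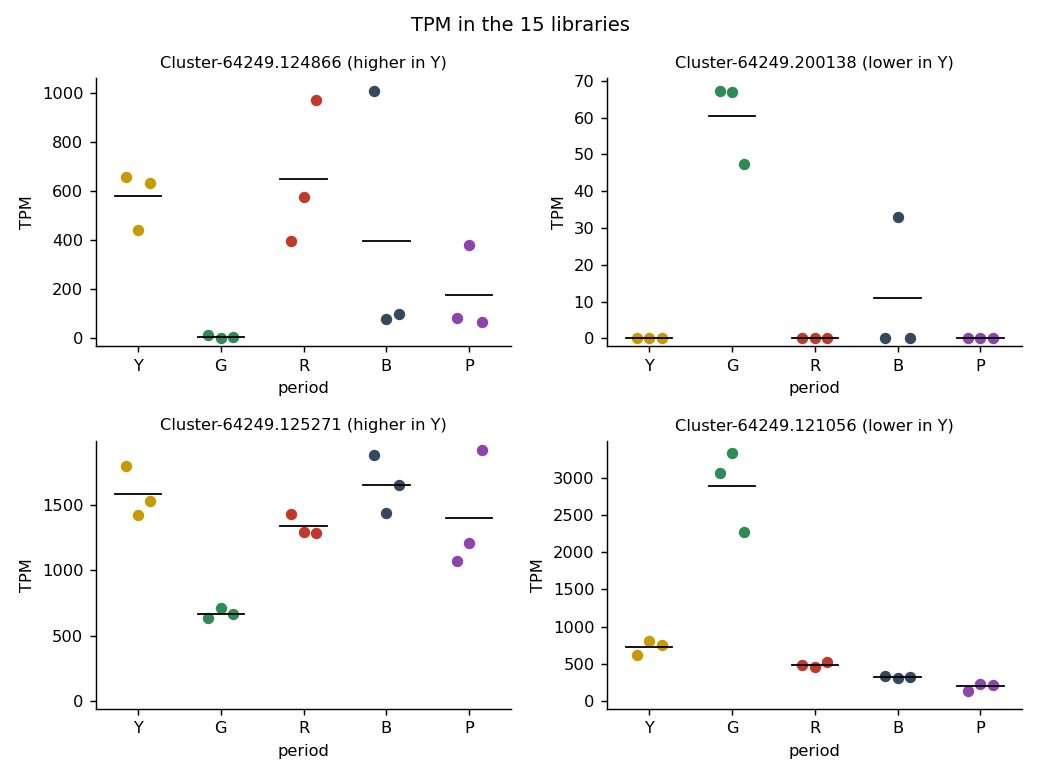
TPM in each of the 15 libraries for the 4 transcript clusters named by rule, 1 point a library and a line at the period mean. The left panels are higher in Y than in G and the right panels lower; in the lower right panel the G libraries stand between 2273 and 3332 TPM, above every other library.

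The 4 transcript clusters named had groups that did not overlap and were, in each direction, the called one with the largest difference among those with a mean of at least 10 TPM in Y or G, and the most abundant called one above 0 in all 6 libraries. Cluster-64249.124866 had the largest difference of the higher set. Its level was 659, 444 and 634 TPM across Y replicates 1, 2 and 3, against 12.7, 0.360 and 4.33 TPM in G replicates 1, 2 and 3. Every Y library was far above every G library, and G replicate 2 was close to 0. The difference was 6.95 ± 0.96 on the log2(TPM + 1) scale (SE; limma, adjusted p = 0.0022). In the limma fit on the 6 libraries alone its adjusted p was 0.0778. In the other periods Cluster-64249.124866 was uneven, at 398, 577 and 972 TPM in R replicates 1, 2 and 3, at 1010, 78.0 and 99.9 TPM in B and at 82.1, 382 and 67.2 TPM in P. Each of these 9 values lay above the 3 G values, and only B replicate 1 and R replicate 3 lay above all 3 Y values.

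Cluster-64249.125271 was the most abundant of the higher set and among the most abundant in Y, where its mean ranked 10 in the whole table. Its level was 1798, 1421 and 1527 TPM across Y replicates 1, 2 and 3, against 631, 708 and 664 TPM in G replicates 1, 2 and 3. The groups did not overlap, and the ratio of the means was 2.37. The difference was 1.24 ± 0.18 on the log2(TPM + 1) scale (SE; limma, adjusted p = 0.00279). Its adjusted p was 0.185 in the limma fit on the 6 libraries alone and 0.0624 with no variance trend. The libraries of the other periods stood between 1073 TPM in P replicate 1 and 1923 TPM in P replicate 3, all above the 3 G libraries. The G period was thus the low one for Cluster-64249.125271, and the ranges of R, B and P each overlapped that of Y.

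Cluster-64249.121056 was the most abundant of the lower set, and its mean in G ranked 2 in the whole table. Its level was 619, 801 and 748 TPM across Y replicates 1, 2 and 3, against 3063, 3332 and 2273 TPM in G replicates 1, 2 and 3. The lowest G library was well above the highest Y library. The difference was -1.99 ± 0.20 on the log2(TPM + 1) scale (SE; limma, adjusted p = 0.000159). In the limma fit on the 6 libraries alone its adjusted p was 0.129. The other periods lay lower still, at 490 ± 30.1 TPM in R, 320 ± 16.9 TPM in B and 196 ± 54.7 TPM in P (SD, n = 3 each). None of these 9 libraries reached the lowest Y value.

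Cluster-64249.200138 had the largest difference of the lower set and was listed at 0 in the 3 Y libraries, against 67.3, 67.0 and 47.3 TPM in G replicates 1, 2 and 3 (limma, adjusted p = 0.00704). It remained called in the fit on the 6 libraries alone (limma, adjusted p = 0.0155). Among the other 9 libraries Cluster-64249.200138 was above 0 only in B replicate 2, at 33.1 TPM. The remaining 8 were listed at 0.

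Some members were present in 1 of the 2 periods and listed at 0 in the other. At 1 TPM or more in all 3 Y libraries and 0 in all 3 G libraries were 994 transcript clusters, or 1.28% of the members. The reverse, on in all 3 G libraries and 0 in all 3 Y libraries, held for 438, or 0.562%. These transcript clusters passed the low-value limit through the period where they were on and so had to differ. Of the 994, 297 were called higher in Y, and of the 438, 250 were called lower in Y. The levels were low. In the period where they were on, the median mean was 3.53 TPM for the 994 and 3.11 TPM for the 438, the highest 83.0 and 63.6 TPM, and 146 and 46 reached 10 TPM. The summed level of the 994 was 6599, 5604 and 7286 TPM in Y replicates 1, 2 and 3, and that of the 438 was 2439, 1945 and 2427 TPM in G replicates 1, 2 and 3. Both counts depended on single libraries, since each library left out removes 1 of the 6 conditions. They moved most without a library of the period that had to be on. Without G replicates 1, 2 and 3 the first count was 1549, 2031 and 1691, and without Y replicates 1, 2 and 3 it was 2557, 2428 and 2931. The second count was 766, 787 and 665 without Y replicates 1, 2 and 3, and 2064, 1961 and 1643 without G replicates 1, 2 and 3. The number of transcript clusters above 0 per library differed between the periods too, as given above, and its part in these counts was not tested.

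Part of each of these sets was also on in the other periods. Of the 994, between 467 and 487 reached 1 TPM in each R library, between 329 and 476 in each B library and between 166 and 358 in each P library. Only 81 of the 994, or 8.15%, were listed at 0 in all 9 R, B and P libraries. Of the 438, between 77 and 90 reached 1 TPM in each R library, between 74 and 85 in each B library and between 51 and 77 in each P library. All 9 of these libraries listed 110 of the 438, or 25.1%, at 0. The P libraries differed in how many transcript clusters they listed above 0 at all, from 97466 to 187300. The part of that range in the P values was not tested. No test of the difference between the 994 and the 438 was made.

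**Figure D3:**
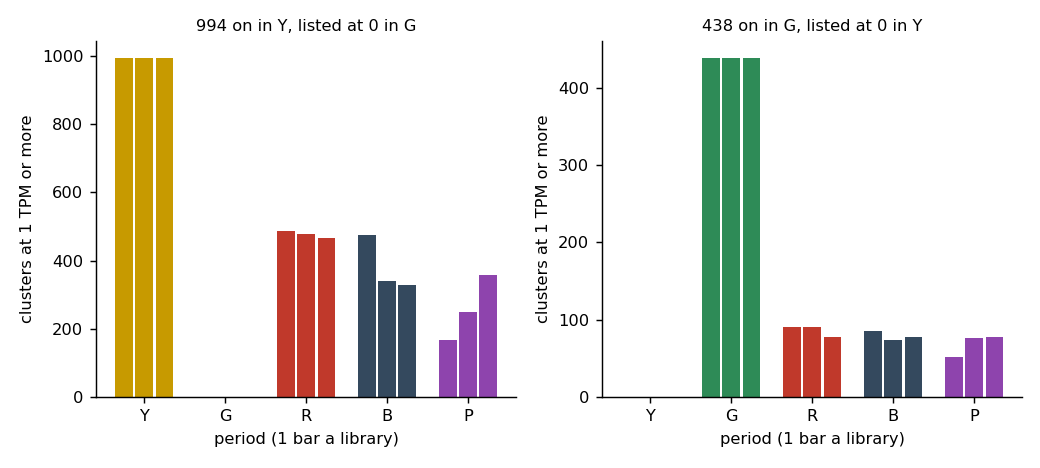
Number of transcript clusters at 1 TPM or more in each library, 1 bar a library, among the 994 on in Y and listed at 0 in G (left) and the 438 on in G and listed at 0 in Y (right). The Y and G bars are set by the definition; the R bars of the left panel stand between 467 and 487, those of the right panel between 77 and 90.

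The 726 members lower in Y mostly had their highest level in G among all 5 periods. The period mean was highest in G for 702, or 96.7%, and for 700 with median-ratio scaling. These members were called for G above Y, so Y could not be highest. The G values that chose them can also run high against R, B and P, which did not choose them by direction. They held 0.674%, 0.675% and 0.734% of TPM in Y replicates 1, 2 and 3, against 3.00%, 2.87% and 2.38% in G replicates 1, 2 and 3. In the other 9 libraries they held between 0.528%, in P replicate 1, and 0.676%, in B replicate 3. No R, B or P library came near the G libraries in this share. All 9 but B replicate 3 lay below each of the Y libraries in this share. A share of a library's own total does not change when the library is rescaled. Levels after median-ratio scaling were therefore summed and set against the deposited total. On that measure the 9 ran from 0.541% to 0.692% and the Y libraries from 0.616% to 0.707%.

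The 950 members higher in Y mostly had their lowest level in G, alone or tied with another period, while the highest level was spread over several periods. The period mean was lowest in G, ties included, for 836, or 88.0%, and highest in Y for 508, or 53.5%. With median-ratio scaling these were 844 and 490. These members were called for Y above G, so Y could not be lowest. For 297 of them all 3 G libraries were listed at 0, so no period could be lower. The G values that chose them can also run low against R, B and P. For 233 the highest mean was in B, for 143 in R and for 66 in P. They held 4.83%, 4.94% and 5.53% of TPM in Y replicates 1, 2 and 3, against 1.51%, 1.30% and 1.14% in G replicates 1, 2 and 3. R libraries held between 5.64% and 5.80%, B libraries between 5.86% and 7.10%, and P libraries between 4.51% and 4.81%. Each R and B library was above each Y library in this share, and each P library was just below each Y library but far above G. Levels summed after median-ratio scaling were again set against the deposited total, which is not a share of the rescaled library. That gave between 5.34% and 5.53% in P libraries, between 5.29% and 5.38% in R and between 4.51% and 5.33% in Y. On that measure each P library lay above each Y library. The Y and G values chose these members and are given only as a scale for the others.

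**Figure D4:**
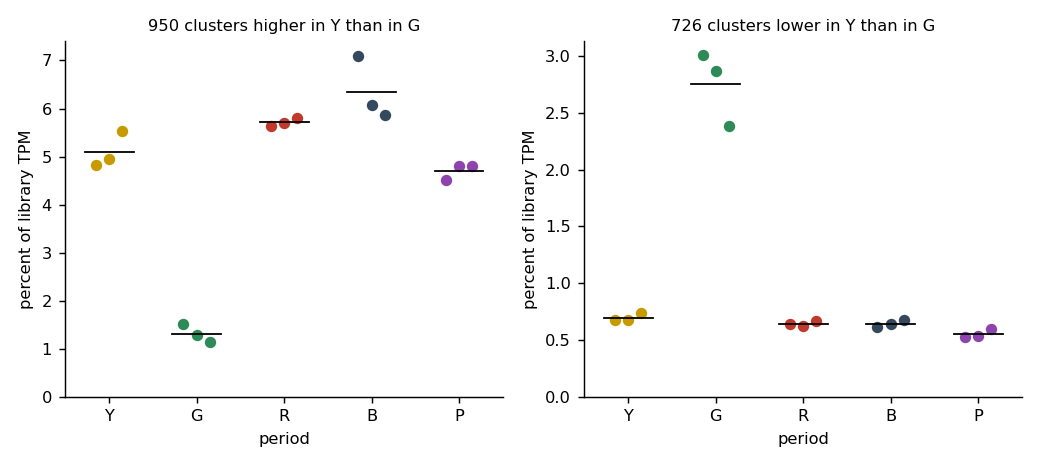
Percent of each library's TPM held by the 950 members higher in Y than in G (left) and the 726 lower in Y (right), 1 point a library and a line at the period mean. On the left the G libraries stand lowest, between 1.14% and 1.51%; on the right they stand highest, between 2.38% and 3.00%, with all other libraries at or below 0.734%.

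To place the periods feature by feature, each period mean on the log2(TPM + 1) scale was given a position, with 0 at the G mean and 1 at the Y mean. For the higher set the median position was 0.868 for R, 0.693 for B and 0.325 for P. The R libraries agreed closely, with medians of 0.891, 0.893 and 0.860 in R replicates 1, 2 and 3. The B libraries gave 0.836, 0.618 and 0.626, and the P libraries 0.289, 0.347 and 0.473. R was nearer to Y than to G for 682 of 950 members, or 71.8%, B for 546, or 57.5%, and P for 424, or 44.6%. Equal to the G mean, or beyond it on the side away from Y, were 130 members in R, 219 in B and 308 in P. Of the 950, 297 were listed at 0 in all 3 G libraries, so their positions could not fall below 0. For those 297 a position of 0 means only that the other period was also listed at 0. All of R, B and P were nearer to Y for 396, or 41.7%, and none of them for 242, or 25.5%. R alone was nearer to Y for 140, and R with B for 132. With median-ratio scaling the P value moved to 0.443.

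For the lower set the median position was 1 in each of R, B and P. The position was exactly 1, from equal means in Y and the other period, for 155 members in R, 174 in B and 187 in P. Of the 726, 250 were listed at 0 in all 3 Y libraries, so their positions could not exceed 1. For those 250 a position of 1 means only that the other period was also listed at 0. R was nearer to Y than to G for 95.5% of the 726, B for 92.1% and P for 93.0%. All of R, B and P were nearer to Y for 638, or 87.9%. Only 15 had none of the 3 nearer to Y.

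The differences of the other periods from G give the same members side by side, although these comparisons share the G libraries and are not independent of each other. Over the higher set the median difference on the log2(TPM + 1) scale was 2.10 for Y minus G, 1.62 for R minus G, 1.27 for B minus G and 0.64 for P minus G. Over the lower set it was -2.03 for Y minus G, -1.98 for R minus G, -2.06 for B minus G and -2.14 for P minus G.

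The model of all periods can favour members that are even in R, B and P, since these libraries enter its estimate of the spread. The positions were therefore also taken over the members called in the 6 libraries alone, which R, B and P did not enter. The same Y and G libraries still chose these members. Over the 152 higher ones the median position was 0.839 for R, 0.695 for B and 0.481 for P. G had the lowest mean, ties included, for 136. Over the 105 lower ones it was 1.09 for R, 1.06 for B and 1.18 for P, and G had the highest mean for 103.

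**Figure D5:**
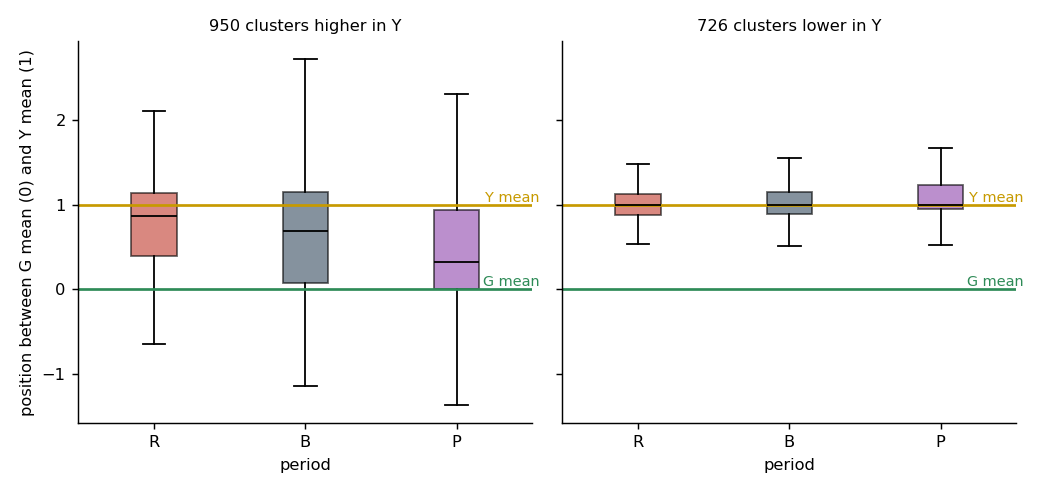
Position of the R, B and P means between the G mean, at 0, and the Y mean, at 1, for the 950 members higher in Y (left) and the 726 lower in Y (right). Boxes span the interquartile range with a line at the median, and whiskers reach the farthest value within 1.5 times that range, with points beyond it not drawn; the medians on the left are 0.868, 0.693 and 0.325.

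Many identifiers of the lower set lay outside the prefix that most share. That prefix, 64249, is held by 98.4% of the members and by 84.0% of all identifiers deposited. What a prefix stands for is not stated in the labels or the table. Outside it lay 16 of the 950 higher members, or 1.68%, and 81 of the 726 lower members, or 11.2%, against 1.60% of all members. The share outside was 3.52% of the 994 on in Y and listed at 0 in G, and 18.9% of the 438 on in G and listed at 0 in Y. Of the 110 present in G alone among all 15 libraries, 47 lay outside the prefix, or 42.7%, and of the 81 present in Y alone, 9 did, or 11.1%. These on and off sets passed the low-value limit through the period where they were on. So did 386 of the lower members, with no Y library at 1 TPM or more, and 400 of the higher members, with no G library there. The shares of the called and of the on and off sets are therefore not like for like with the 1.60% of all members. The 81 lower members outside the prefix summed to 3.29, 4.42 and 4.02 TPM in Y replicates 1, 2 and 3, against 340, 242 and 288 TPM in G replicates 1, 2 and 3. In the other 9 libraries they summed to between 0 and 21.5 TPM. Every G library was far above every other library in this sum. These members were called for G above Y. Their Y and G sums follow from that choice and are given only as a scale for the other libraries. Transcript clusters outside the prefix as a whole held between 1.53% and 2.82% of TPM in Y libraries and between 3.10% and 8.57% in G libraries. That share was not highest in G: it was between 1.68% and 1.99% in R libraries, between 2.42% and 7.93% in B libraries and between 6.15% and 20.6% in P libraries. These counts describe the identifiers and carry no test.

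The limit of 3 libraries that defined the members sits among low values. At 1 TPM or more in exactly 3 of the 6 libraries were 19028 members, with a median mean level of 1.26 TPM and a median absolute difference of 0.60 on the log2(TPM + 1) scale. Just outside, at 1 TPM or more in exactly 2, were 35725 transcript clusters with a median mean level of 0.833 TPM and a median absolute difference of 0.50. Only 4 transcript clusters outside the members were called between Y and G. All 6 libraries reached 1 TPM for 33247 members, of which 407 were higher in Y and 262 lower. No G library reached 1 TPM for 2301 members and no Y library for 1491, and 400 of the first were called higher and 386 of the second lower, which follows in part from how they passed.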

How the data were processed

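The authors deposited 1 table of TPM values, which by the column sums, between 999997 and 1000003, share 1 total across libraries. All 15 columns matched a library by title, and no 2 libraries held identical values. How transcripts were assembled, clustered and quantified is not given in the sources used here. No identifier matches the mouse genome builds listed in the submitters' processing notes. Values were transformed to log2(TPM + 1), and limma 3.58.1 in R 4.3.3 was fitted to all 15 libraries with the 5 period means, a variance trend and 10 residual degrees of freedom (a count model does not suit TPM). The test was checked on simulated data. Tables and figures were made with Python 3.11.15, pandas 2.3.3, NumPy 2.4.6 and Matplotlib 3.10.9. On means at least 1 TPM in all 3 libraries of a period, off a listed 0 in all 3 of the other. The named transcript clusters follow the rule given with them. The members, tests and naming rule were chosen with earlier results of these data known. The alternatives were another pseudocount, 2 other filters, median-ratio scaling, the replicate block, a fit on 6 libraries, no variance trend, library weights, other limits for on, and leaving out each library. Positions over members called in the 6 libraries alone were chosen after seeing the data. The labels name no batch.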

Additional observations from a re-analysis of the deposited data

How the results depend on the processing

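Counts of called members are given as higher in Y, then lower in Y, against 950 and 726. They were 514 and 400 with no filter, where many more low transcript clusters enter both the variance trend and the adjustment. With a pseudocount of 0.1 they were 866 and 442, and when the mean had to reach 10 TPM 830 and 327. In the 6 libraries alone, where 4 residual degrees of freedom remain, they were 152 and 105. Leaving out 1 of the 15 libraries gave 501 to 1072 and 410 to 776. Median-ratio scaling gave 803 and 827, no variance trend 768 and 657, and library weights 1419 and 1031. The replicate numbers gave no sign of pairing: same-numbered Y and G libraries deviated from their means with r of -0.09, -0.01 and -0.02, and 0 of 6 libraries correlated best with their own number. Whether same-numbered libraries share a plant or harvest day is not given in the labels and cannot be told from these values. The replicate block gave 717 and 569. On in Y and listed at 0 in G were 1929 at a limit of 0.5 TPM and 486 at 2 TPM, and 1549 to 2931 without 1 library. On in G and listed at 0 in Y were 891, 172 and 665 to 2064. For the higher set, R moved to 0.894 with a pseudocount of 0.1 and to 0.839 over the members called in the 6 libraries alone, and P to 0.443 with median-ratio scaling and to 0.481 over those members. For the lower set over those members the positions were 1.09 in R, 1.06 in B and 1.18 in P. The cause of each of these moves was not tested. Of the 4 named transcript clusters, 3 lost their call in the 6 libraries alone, with adjusted p of 0.0778, 0.185 and 0.129 (limma), and 1 with no variance trend, at 0.0624; none lost it in any leave-out. Read depth is unknown, so its part in the presence counts was not tested.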
